A study of Mus musculus with 10 samples.

Results

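The HoxB cluster is the stretch of mouse chromosome 11 that carries Hoxb1, Hoxb2, Hoxb3, Hoxb4, Hoxb5, Hoxb6, Hoxb7, Hoxb8, Hoxb9 and Hoxb13. It was taken here as every CpG cytosine of the deposited count table that lies at chr11:96190000-96372000 on the mm10 build, which gave 1525 of 2391795 cytosines, 751 of them plus-strand and 774 minus-strand. DNA of 10 single mouse embryos at embryonic day 7.5 had been measured by reduced representation bisulfite sequencing, which enriches CpG-rich fragments and reads unmethylated cytosines as thymines. The labels name 5 embryos arsenic and 5 embryos control, from experiment 2 of the study. The name of the deposited count table calls them F2 embryos. The label arsenic does not say whether the embryo itself or an earlier generation was exposed. The sources used here do not give the strain, the sex, the dose, route and time of arsenic, or which parts of the conceptus were taken. The study compared arsenic with control embryos. That comparison was not made, because the columns of the table carry only the numbers 1 to 10, which tie no library to an embryo or a group. All values below therefore describe the 10 libraries as unassigned samples that mix arsenic and control embryos, and they say nothing of arsenic.

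Hox genes encode homeodomain transcription factors that give cells of the body axis their position. Their order along the chromosome matches the order in which they are switched on and their anterior limits of expression, with Hoxb1 at the early, anterior end and Hoxb13 at the late, posterior end, and all genes of a cluster are transcribed in the same direction. In mammals the clusters are rich in CpG islands, and before activation they are covered by the histone mark H3K27me3, placed by Polycomb complexes. Gastrulation is the stage at which the anterior genes come on in the posterior embryo. Around implantation the embryo's genome gains methylation again after its loss in the cleavage stages, while most CpG islands stay free of it.

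The sequences below show where the measured CpGs of 3 start sites in the cluster lie, at Hoxb1, the only member of the 3 in the promoter table with measured CpGs there, and at the long noncoding RNA genes Gm30134 and Gm51876 for contrast. Each runs 5′ to 3′ on its gene's strand, from 250 bases before the start site to 50 bases after it, from RefSeq's GRCm38.p6 table, which holds 3 of the 10 members. Capitals mark the CpGs that were read on at least 1 strand. The Hoxb1 promoter (chr11:96365508-96365807, plus strand) had 4 of 10 CpGs read, at a mean level of 27.2% (20.7% to 31.5% over the libraries). For Gm30134 the promoter table holds more than 1 start. The promoter printed (chr11:96203379-96203678, minus strand) had all 21 CpGs read, at 4.30% (3.28% to 6.86%), the lowest of them. The others, which overlap it, had 5.69% (4.19% to 8.63%) and 6.13% (4.36% to 9.18%), the last at the 5′ end of the gene record. The Gm51876 promoter (chr11:96269002-96269301, minus strand) had 6 of 7 CpGs read, at 23.4% (19.9% to 28.0%).
Hoxb1: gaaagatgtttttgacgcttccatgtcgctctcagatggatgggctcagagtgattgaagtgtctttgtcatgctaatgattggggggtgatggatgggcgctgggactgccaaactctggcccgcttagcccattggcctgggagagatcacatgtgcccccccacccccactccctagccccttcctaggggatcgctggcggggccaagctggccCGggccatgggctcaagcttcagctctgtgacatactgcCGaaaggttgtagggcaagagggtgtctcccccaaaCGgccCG
Gm30134: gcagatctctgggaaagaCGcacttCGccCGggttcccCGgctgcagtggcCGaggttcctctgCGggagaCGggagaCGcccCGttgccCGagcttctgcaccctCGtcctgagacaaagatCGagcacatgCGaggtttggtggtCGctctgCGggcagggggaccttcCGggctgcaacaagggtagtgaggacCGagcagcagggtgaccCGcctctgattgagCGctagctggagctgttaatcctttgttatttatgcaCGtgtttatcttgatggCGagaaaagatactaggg
Gm51876: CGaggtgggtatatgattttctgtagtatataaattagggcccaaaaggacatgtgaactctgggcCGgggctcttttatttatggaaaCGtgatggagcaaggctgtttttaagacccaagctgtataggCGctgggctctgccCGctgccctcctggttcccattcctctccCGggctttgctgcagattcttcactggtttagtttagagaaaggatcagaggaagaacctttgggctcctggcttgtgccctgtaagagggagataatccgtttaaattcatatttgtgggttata
The Hoxb4 promoter holds 14 CpGs and the Hoxb8 promoter 13, and no cytosine of either was read. The other 7 members have no promoter in that table, and cytosines near their starts are given with each gene.

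Across the whole cluster, methylation was low beside the mean of all autosomal cytosines. The level of a window is the mean over its cytosines of methylated reads over coverage, and pooled levels sum the reads of the 10 libraries at each cytosine before dividing. The HoxB cluster had a pooled level of 15.5%, and its libraries ran from 14.7% in library 4 to 16.2% in library 3 (median 15.6%). In the same libraries the mean of all 2346489 autosomal cytosines was 41.6%, from 40.3% in library 1 to 42.8% in library 2. Within libraries, the cluster minus the autosomal mean ran from -27.96 to -24.97 points, and the libraries at its ends were not those at the ends of the autosomal mean. The stretches of equal length on either side were higher, at 37.0% before Hoxb13 (466 cytosines, 35.3% to 38.4%) and 51.8% after Hoxb1 (304 cytosines, 49.9% to 55.0%). No test was run on these levels. A level between 0% and 100% in an embryo can come from a part of its cells or from a part of the DNA copies in each cell, which cannot be told apart here, and bisulfite reads methyl and hydroxymethyl cytosine alike.

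The cluster's cytosines filled the range just above the unmethylated state. Of its 1525 cytosines, 26.0% were under 5%, 26.5% were between 10% and 20%, 25.8% were between 20% and 80%, and 0.525% were over 80%. Of all autosomal cytosines, 25.03% were under 5% and 56.6% were between 20% and 80%, with a median level of 48.5%. Levels of 5% to 30% were held by 60.4% of the HoxB cytosines and by 11.9% of the autosomal ones. This shape was not particular to HoxB: the same share was 59.7% in HoxA, 67.9% in HoxC and 60.8% in HoxD, the 3 other Hox clusters of the mouse. No read at all was methylated at 15 HoxB cytosines, and 85 were under 5% in each of the 10 libraries.

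**Figure D1:**
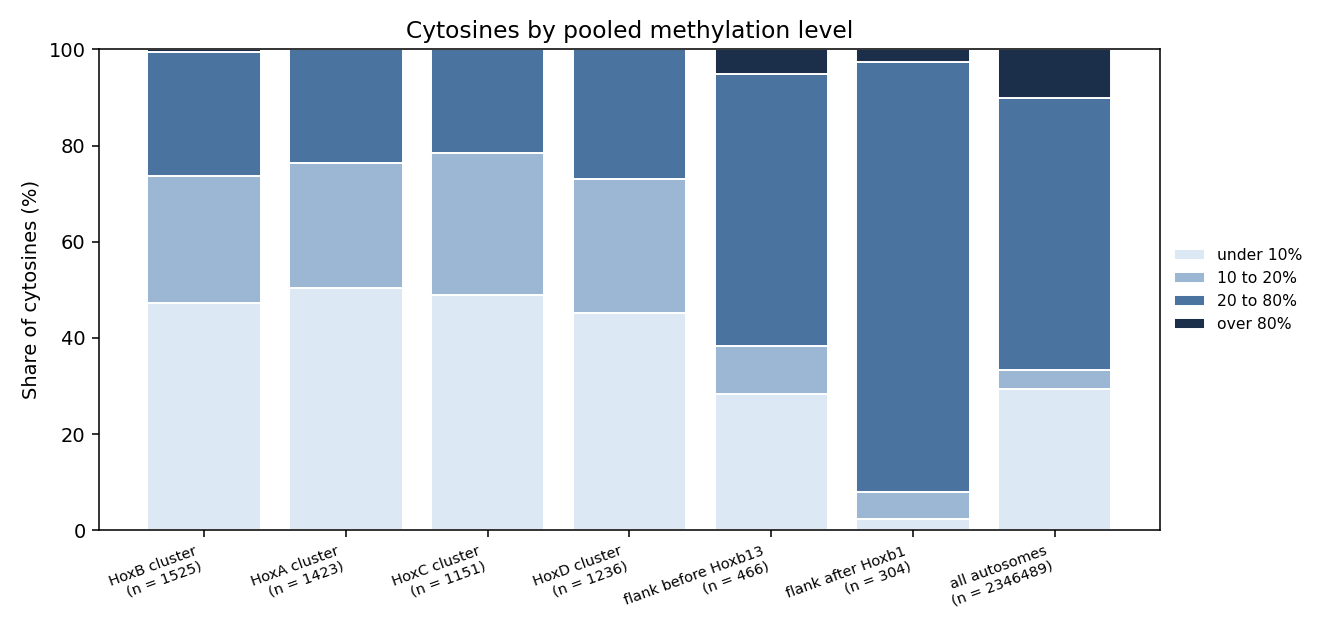
Share of cytosines, in percent, whose level pooled over 10 libraries is under 10%, 10 to 20%, 20 to 80% or over 80%, in the HoxB cluster, the other Hox clusters, the stretches beside HoxB and all autosomes. The 10 to 20% class holds 26.5% of the HoxB cytosines and 4.05% of the autosomal ones.

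In 1 kb tiles, 80 of the 182 tiles of the cluster held a measured cytosine and 72 held at least 3. Of these 72 tiles, 16 were under 10%, 29 between 10% and 20%, and 27 between 20% and 80%. A level of 10% to 30% was found in 44 of the 72 tiles (61.1%), and in 5.78% of all 195784 autosomal tiles with at least 3 cytosines. The share was 50.9% of 55 tiles in HoxA, 67.9% of 56 in HoxC and 60.5% of 43 in HoxD. Beside the cluster it was 17.5% of 40 tiles before Hoxb13 and 7.14% of 28 tiles after Hoxb1.

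How the cluster differed from other tiles depended on how many cytosines a tile held. Among tiles with 3 to 9 cytosines, the median of 23 HoxB tiles was 25.1% and that of the autosomal tiles 57.2%. Among tiles with 10 to 19, the medians were 17.8% for 17 HoxB tiles and 59.0% for the autosomes. The order was the other way round in the densest tiles, where 12 HoxB tiles with 40 or more cytosines had a median of 8.30%, against 1.78% for 8059 autosomal tiles. Of those 12 tiles, 5 lay at 10% to 30%, as did 10.3% of the autosomal ones. The densest tiles of the other clusters had medians of 10.3% in HoxA (11 tiles), 9.41% in HoxC (8 tiles) and 11.4% in HoxD (12 tiles). Over the 72 HoxB tiles, level and number of cytosines ran opposite (Spearman's rho -0.54, a description across tiles that share libraries).

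**Figure D2:**
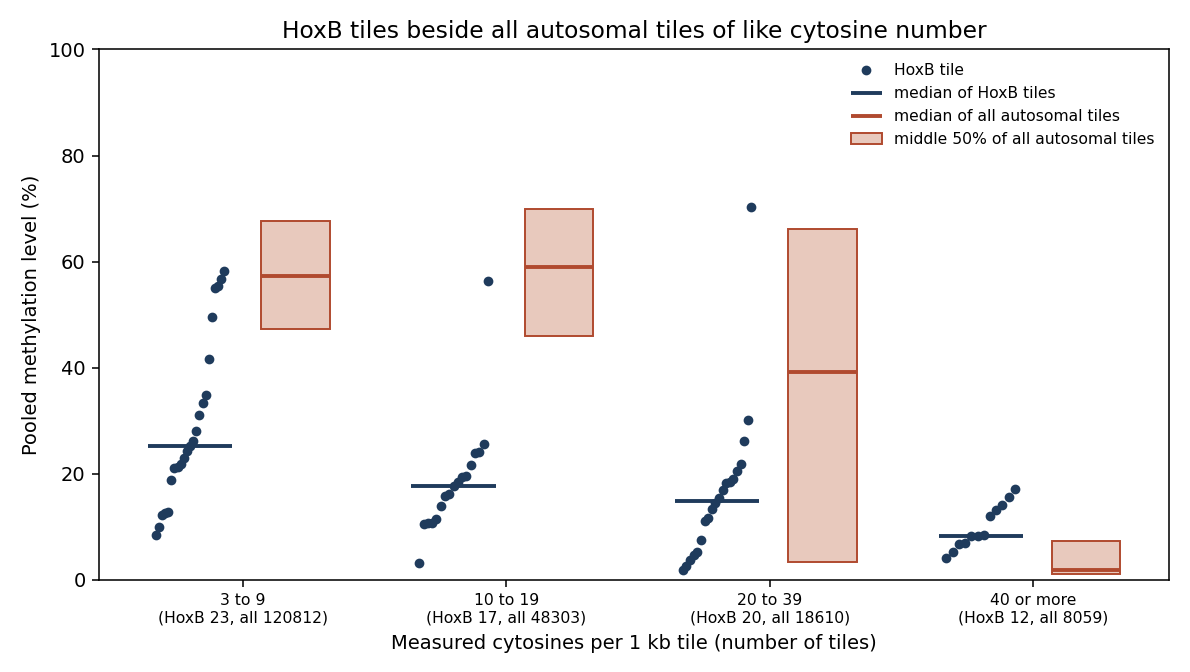
Pooled methylation level, in percent, of the 72 HoxB tiles of 1 kb with at least 3 cytosines (points, with their median as a line), beside the median and middle 50% of all autosomal tiles, in classes of measured cytosines per tile. HoxB medians are below the autosomal ones in the 3 sparser classes and above in the class of 40 or more, at 8.30% and 1.78%.

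Along the chromosome the cluster had a methylated interval and a long low block. The 74719 bp between the Hoxb13 and Hoxb9 records had a level of 23.8% over 481 cytosines (22.9% to 25.6%), and the block from Hoxb9 to Hoxb1 had 12.04% over 920 cytosines (11.2% to 13.1%). The interval was higher than the block in all 10 libraries, by 10.8 to 13.5 points. All 8 tiles over 40% lay in this interval, among its 26 tiles. The 41 tiles from Hoxb9 on ran from 1.93% to 31.1%, with a median of 13.9%. The whole HoxB cluster was above HoxA (13.3%), HoxC (12.5%) and HoxD (14.0%) in each of the 10 libraries, by 0.985 to 3.77 points. The block from Hoxb9 to Hoxb1 was higher than HoxA in 1 library, than HoxC in 3 libraries and than HoxD in 0 libraries, so the cluster's margin over the other clusters was carried by the interval next to Hoxb13, which holds no other Hox gene.

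**Figure D3:**
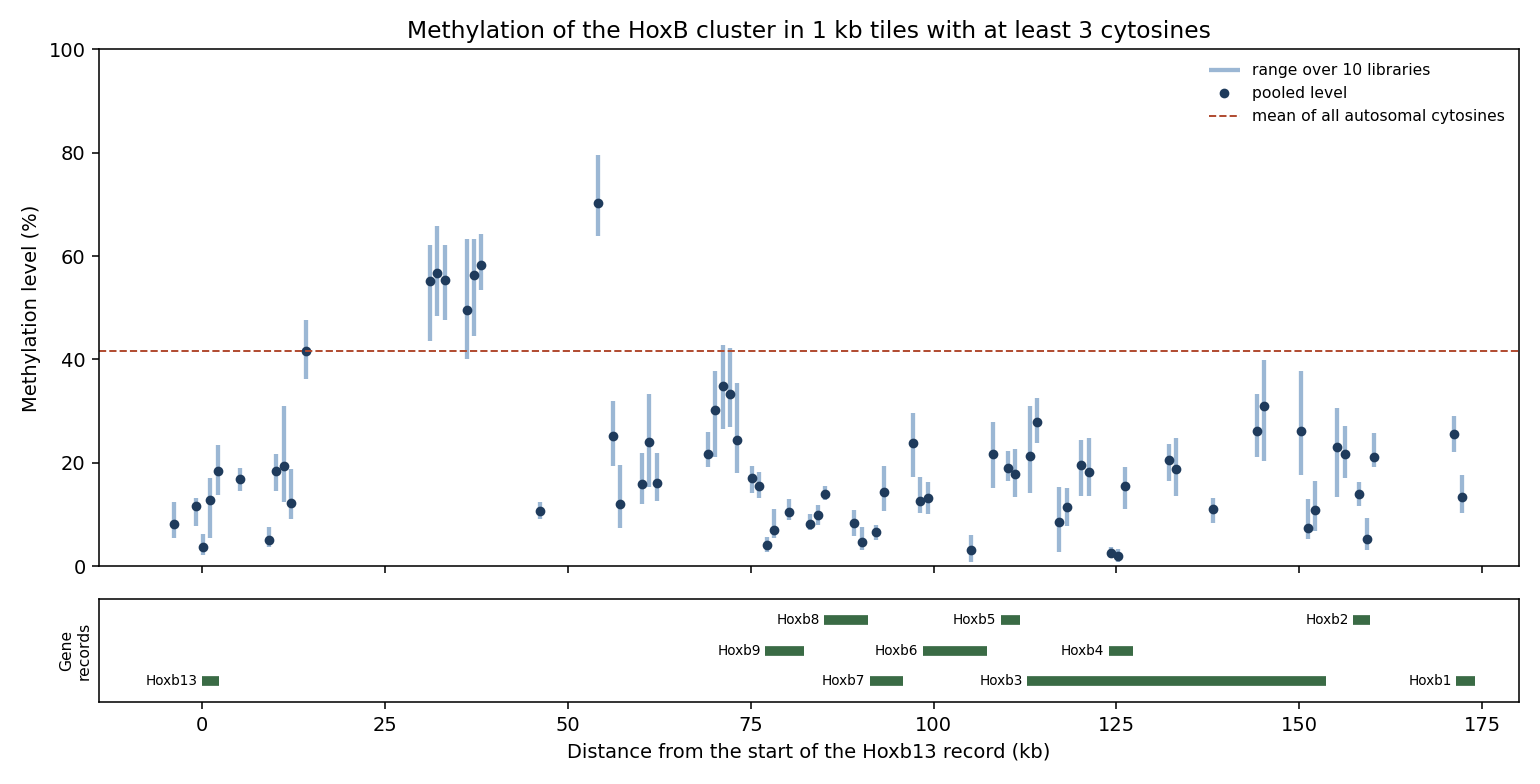
Methylation level, in percent, of 1 kb tiles with at least 3 cytosines against the distance in kb from the start of the Hoxb13 record, with the range over 10 libraries as bars, the pooled level as points and the gene records below. Tiles over 40% lie between Hoxb13 and Hoxb9, and no tile from Hoxb9 on passes 31.1%.

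Within the interval, the highest tile of the cluster with at least 10 cytosines was chr11:96248000-96248999, whose 37 cytosines all lie in the pseudogene Gm11539. Its pooled level was 70.2%, and the libraries ran from 63.9% in library 1 to 79.6% in library 5 (median 71.3%). Autosomal tiles with 37 cytosines had a median of 6.79%, and 90.4% of them were lower. A low tile stood apart from methylated surroundings at chr11:96240000-96240999, where 12 cytosines had 10.7% (9.09% to 12.4%). The nearest tile with at least 3 cytosines on its Hoxb13 side had 58.2% over 4 cytosines.

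On the Hoxb13 side of the interval, the tile chr11:96203000-96203999 was low, with 5.16% over 58 cytosines. The tiles chr11:96199000-96199999 and chr11:96204000-96204999 on that side had 16.9% and 18.4%. Gm30134, a long noncoding RNA gene on the minus strand, had 9.04% over 80 cytosines within 1000 bp of its 5′ end (8.15% to 10.3%). Gm11538, a long noncoding RNA gene with which it shares much of that window, had 8.27% over 73 cytosines (7.48% to 10.1%). Gm11538 and Gm53 have no strand in the promoter table. They were measured at the end with more cytosines, which need not be the 5′ end. At the other end of the interval the gene windows were higher than these, with 27.5% at Gm53 over 56 cytosines (24.1% to 30.4%) and 17.7% at Gm51876 over 51 cytosines (14.6% to 19.3%). The level at Gm51876 was near the 16.9% and 18.4% of the tiles on the Hoxb13 side. Mir196a-1 encodes miR-196a, a microRNA known to cleave the Hoxb8 transcript, and had 34.7% over 29 cytosines within 1000 bp of its 5′ end. Its libraries ran from 28.8% in library 4 to 39.9% in library 2, a range that overlaps that of Gm53, whose window it shares in part. The mature microRNA is shown for identity, with its seed, bases 2 to 8, in capitals.
mmu-miR-196a-5p: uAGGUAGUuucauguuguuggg
No cytosine was measured within 1000 bp of the 5′ end of Mir10a, the other microRNA gene of the cluster, which lies next to Hoxb4.

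The members are given from posterior to anterior, by the cytosines within 1000 bp of the lower end of the gene record. The promoter table places 3 of the 10 members on the plus strand, and since a Hox cluster is transcribed in a single direction that end was taken as the 5′ end for all 10. Records can begin at a distal transcript start, as that of Hoxb8 does here, and exons, introns and UTRs were not analysed here.

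Hoxb13, which limits the growth of the tail end of the axis and acts in the prostate, had 5.43% over 52 cytosines, with libraries from 4.03% to 7.68% and a median of 5.15%. The tile at its start had 3.67%, and its gene record as a whole 11.1% (33 cytosines, 9.28% to 14.0%). Methylation was thus lowest at the start and higher into the gene, and the last 1000 bp and the 1000 bp beyond it reached 16.9% over 18 cytosines.

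Hoxb9, which acts with its paralogs in the thoracic skeleton, had 3.90% over 77 cytosines, from 2.68% in library 3 to 5.40% in library 8 (median 3.76%). Its record had 5.78% over 96 cytosines (4.20% to 7.30%). The low stretch reached into the gene, where the tile chr11:96272000-96272999 had 6.95% over 44 cytosines. A window of 2000 bp on either side of the start, which takes in more of the upstream side, had 8.77% over 168 cytosines. The tile chr11:96269000-96269999 before the gene, with 48 cytosines, had 17.1%, against a median of 2.28% of autosomal tiles with 48 cytosines.

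Hoxb8, used in the laboratory to hold myeloid progenitors in an immature state, had 13.4% over 18 cytosines at its record start (12.1% to 14.9%, median 12.9%). Its record as a whole was lower, at 6.76% over 85 cytosines (5.24% to 8.41%). The promoter table starts Hoxb8 inside the record, and the tiles after that start, chr11:96283000-96283999 and chr11:96284000-96284999, had 8.37% and 4.75%.

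Hoxb7, whose regulatory sequence is widely used to mark the kidney's ureteric bud, had 6.69% over 55 cytosines, from 4.88% in library 7 to 8.65% in library 8 (median 6.65%). Its record had 8.57% over 86 cytosines (6.88% to 10.6%), above the value at its start. The gap between the Hoxb7 and Hoxb6 records was higher, at 20.1% over 26 cytosines (15.0% to 23.9%).

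Hoxb6, an early marker of lateral plate mesoderm, had 13.1% over 50 cytosines, from 10.3% in library 2 to 15.3% in library 3 (median 12.9%). Inside its record lay a tile of 17 cytosines, chr11:96299000-96299999, with 3.11% (0.861% to 6.10%), where the median of autosomal tiles with 17 cytosines was 57.1%. The record had 10.4% over 59 cytosines (8.45% to 12.5%). The gap that follows, up to Hoxb5, had 21.7% over 17 cytosines (15.1% to 27.9%).

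Hoxb5, known for its part in the enteric nervous system, had only 1 cytosine within 1000 bp of its start, so it has no level there. Its record had 18.4% over 37 cytosines, with libraries from 16.4% to 20.6% and a median of 19.1%, the highest of the 10 gene records. Hoxb5os, a long noncoding RNA gene that spans Hoxb5 and Hoxb6, had 23.9% over 18 cytosines at the end with more cytosines (17.3% to 29.6%).

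Hoxb4, which patterns the neck and can expand blood stem cells, had the lowest level of the members, at 1.78% over 46 cytosines. Its libraries ran from 1.06% in library 6 to 2.72% in library 9 (median 1.53%). The tile with the lowest level among those with at least 10 cytosines lay there, chr11:96319000-96319999, with 1.93% (0.797% to 3.28%). The next tile, chr11:96320000-96320999, with 47 cytosines, had 15.6% (11.05% to 19.2%), so the ranges of these neighbouring tiles did not overlap. As the record continues to that side, its level was 8.79% over 96 cytosines (6.21% to 10.96%).

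Hoxb3, a hindbrain and pharyngeal arch gene, has the longest record, 40830 bp, in which Hoxb4 lies. Its start window had 24.1% over 9 cytosines, from 17.5% in library 9 to 31.3% in library 2 (median 24.0%), and few cytosines support it. That window lies on the posterior side of Hoxb4, next to Hoxb5, and no cytosine was read within 500 bp of the record start. The record had 14.4% over 320 cytosines (12.6% to 17.0%). It held the tile with the widest spread over libraries among those with at least 10 cytosines, chr11:96344000-96344999, where 29 cytosines had a pooled 26.1% and the libraries ran from 17.6% in library 5 to 37.7% in library 10. The neighbouring tile, chr11:96345000-96345999, had 7.43% over 36 cytosines (5.35% to 12.97%), below that range in every library.

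Hoxb2, which acts in hindbrain segments and the facial nerve, had 17.6% over 25 cytosines, from 14.9% in library 5 to 21.8% in library 10 (median 17.3%). Its record was lower, at 9.94% over 84 cytosines (8.02% to 10.8%). The lower part lay at the far end of the gene, where Hoxb3os, a minus-strand long noncoding RNA gene, starts. Within 1000 bp of that start the level was 8.23% over 67 cytosines (5.93% to 10.3%).

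Hoxb1, an early target of retinoic acid that sets the identity of a hindbrain segment, had 20.8% over 26 cytosines, from 18.8% in library 6 to 24.5% in library 5 (median 20.7%). Its record had 17.4% over 31 cytosines (16.1% to 21.9%). The gap between Hoxb2 and Hoxb1 held 9 measured cytosines in 11725 bp, at 24.2% (20.6% to 29.2%).

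Ordered by the level at the start, the members ran from Hoxb3 (24.1%) through Hoxb1, Hoxb2, Hoxb8, Hoxb6, Hoxb7, Hoxb13 and Hoxb9 to Hoxb4 (1.78%). Of the 8 pairs of neighbours in this order, the library ranges were apart in that of Hoxb6 over Hoxb7, and overlapped in the other 7. Within libraries, Hoxb6 was above Hoxb7, Hoxb2 above Hoxb8 and Hoxb9 above Hoxb4 in all 10, while Hoxb8 was above Hoxb6 in 6 of 10. In this window 4 members were under 10% (Hoxb7, Hoxb13, Hoxb9 and Hoxb4) and 5 were over it. Which members were under 10% changed with the window. Within 2000 bp Hoxb8 was under it too, and over the record Hoxb2 and Hoxb8 were but Hoxb13 was not. Higher gene numbers, which are more posterior, tended to have lower levels, with Spearman's rho -0.63 over the 9 start windows and -0.50 over the 10 records. These are descriptions, since the genes share libraries and differ in cytosine number, and Hoxb4 goes against that order at its start. The start window of Hoxb3, the highest, lies posterior to that of Hoxb4, although its gene number is lower.

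**Figure D4:**
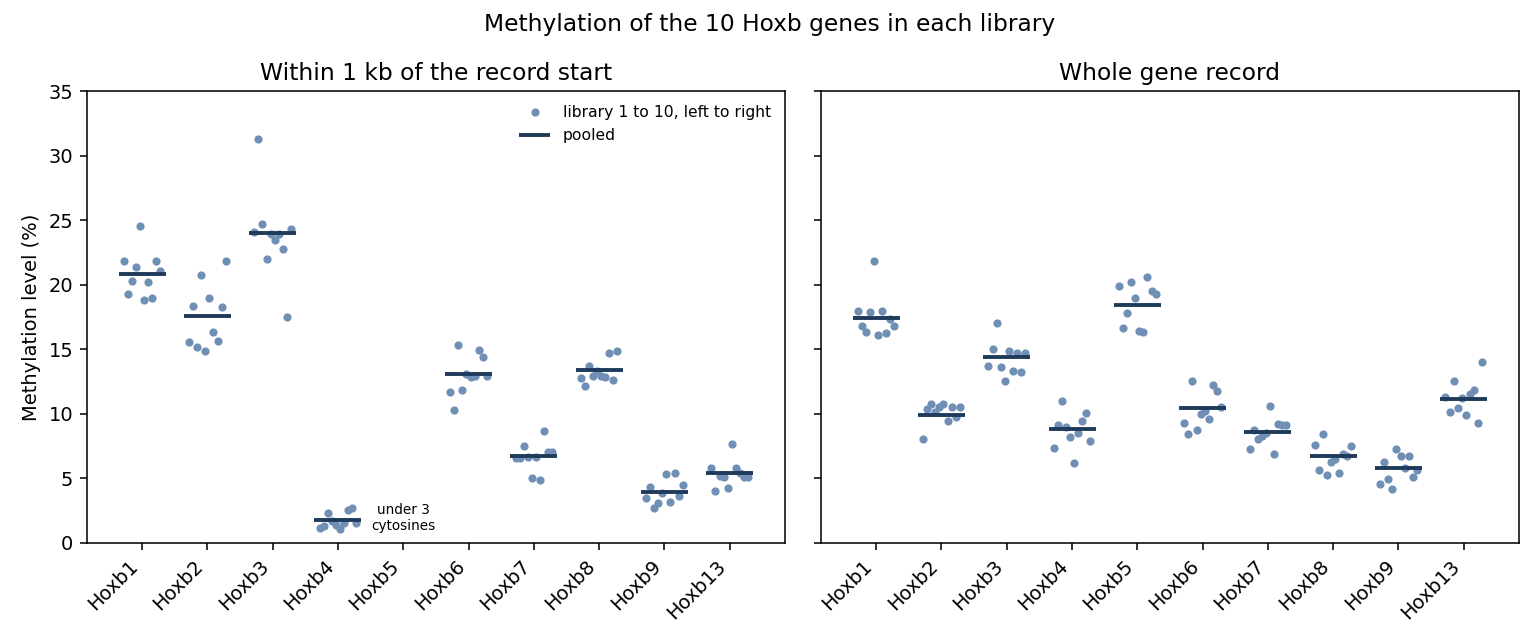
Methylation level, in percent, of the 10 Hoxb genes from Hoxb1 to Hoxb13, within 1 kb of the record start (left) and over the whole record (right), with a point for each of 10 libraries and a line for the pooled level. At the start Hoxb4 lies at 1.78%, and Hoxb1, Hoxb2 and Hoxb3 lie at 17.6% to 24.1%. Genes are in order of number, and the Hoxb3 record starts on the posterior side of Hoxb4.

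Gene records were lower than the spaces between them. From Hoxb9 to Hoxb1, the 122 cytosines between records had 15.9% (15.0% to 16.6%) and the 798 inside them 11.5% (10.5% to 12.7%). The spaces together were higher in all 10 libraries, by 3.10 to 5.10 points. The gap between Hoxb9 and Hoxb8 held 59 of the 122 cytosines, at 9.88%. That is above the records of Hoxb9, Hoxb8, Hoxb7 and Hoxb4 and below those of Hoxb6, Hoxb5, Hoxb3, Hoxb2 and Hoxb1. The other measured gaps had 20.1% to 24.2%, over 9 to 26 cytosines each. Only 5 of the 920 cytosines of the block from Hoxb9 to Hoxb1 were over 50%, and 28.6% were under 5%.

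Other genes were measured for comparison in windows of the same size. HoxA, HoxC and HoxD genes were measured at the start set by the direction of their cluster. A regulator or cofactor without a strand in the promoter table was measured at the end with more cytosines, which need not be its start. Of the 9 measured HoxB genes, 4 were under 10%, with a median of 13.1%. Of 28 measured HoxA, HoxC and HoxD genes, 15 were under 10%, with a median of 8.70%, from Hoxd8 at 0.811% to Hoxd12 at 24.9%, and Hoxd4 at 20.4% was the other gene over 20%. Of 23 measured Hox regulators and cofactors, among them the Cdx, Meis and Pbx factors, retinoic acid enzymes and receptors, and Polycomb and Trithorax genes, 17 were under 10%, with a median of 2.39%. They ran from Suz12, a Polycomb subunit, at 0.902% to Cyp26c1, which breaks down retinoic acid, at 46.9%, the only gene of that list over 20%. Over all 10614 measured autosomal protein-coding genes with a known strand, the median was 2.40% and 74.7% were under 10%, while 7.79% lay at 10% to 20%, as 3 of the 9 HoxB genes did. No test was run on these lists.

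The strands of a CpG had like levels at nearly all of the 523 CpGs read on both. The median difference was 2.00 points and Pearson's r across CpGs was 0.94. The strands differed by more than 20 points at 4 CpGs, and the largest difference was in the Hoxb1 promoter printed above. Positions count from 0 at the start site. At its CpG at position -32, the plus-strand cytosine was 66.7% methylated (48.5% to 75.8%, 447 reads) and the minus-strand cytosine 3.02% (0% to 8.11%, 464 reads), the plus strand higher in all 10 libraries. This CpG lies in the only CCGG of that promoter, a motif that reads the same on both strands and that 53.5% of 31396 autosomal promoters of this length hold. At position 7 the strands had 55.2% and 51.2%, and at positions 43 and 48 all 4 cytosines were at 6.46% to 14.4%. CCGG is the site cut by MspI, the enzyme most used for this assay, although the labels name no enzyme. Bases filled in at a cut end during library preparation do not carry the methylation of the embryo, so a level read there can be set by the preparation, and whether that holds for either strand at -32 was not tested. Without this CpG, an alternative chosen after seeing the data, the promoter had 24.6% over 6 cytosines (18.1% to 30.2%), beside 27.2% with it.

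The 10 libraries were also tested for equal levels at single cytosines of the cluster, with a chi-square test of equal proportions per cytosine and p-values adjusted by Benjamini-Hochberg over 1755343 autosomal cytosines with a pooled level of 5% to 95%. Of 1129 HoxB cytosines tested, 318 (28.2%) had an adjusted p under 0.05, beside 25.4% of all cytosines tested, so the cluster's share was near the background. The test takes each count as a separate molecule. When the chi-square statistic was halved, as if all fragments had been counted in 2 mates, 0 of the 1129 HoxB cytosines passed, beside 0.0867% of all tested, and 83 (7.35%) had an unadjusted p under 0.05, beside 6.50% of all. By level, 30.2% of the HoxB cytosines at 5% to 10% passed as deposited, beside 30.6% of all at that level, 29.95% of those at 10% to 20%, beside 30.3%, and 22.9% of those at 20% to 50%, beside 26.6%. Over 50%, 24 of 74 HoxB cytosines (32.4%) passed, beside 24.1% of all at that level. The calls were spread over the cluster, and the tiles with the most were chr11:96320000-96320999 in Hoxb4, with 20 of 45, and chr11:96286000-96286999 in Hoxb7, with 19 of 39. The share was higher in other tiles, with 8 of 10 in chr11:96231000-96231999 and 16 of 22 in chr11:96272000-96272999. The Hoxb7 tile was read more deeply, at a mean of 68.9 to 106.5 reads over the libraries, beside 38.5 to 52.2 in the cluster.

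No library was at an end of the range throughout. Among the 49 tiles with at least 10 cytosines, library 5 was the lowest in 11 and library 3 the highest in 10, and each of the 10 libraries was the lowest in at least 1 tile and the highest in at least 1. The median range over libraries in these tiles was 6.81 points, and 10.9 points in the 74972 autosomal tiles with at least 10 cytosines. This order depended on cytosine number. The median range was 9.58 points in HoxB and 12.96 in all autosomal tiles with 10 to 19 cytosines. With 40 or more it was 5.15 points in HoxB and 2.30 in all autosomal tiles. Median levels differed too, at 17.8% in HoxB and 59.0% in all autosomal tiles with 10 to 19 cytosines. With 40 or more they were 8.30% and 1.78%. Whether the range follows the level was not tested. The mean coverage of a HoxB cytosine was 38.5 reads in the least covered library and 52.2 in the most covered, and the total count over the table was 94583116 to 127102232 per library.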

How the data were processed

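DNA of single embryos was measured, purified on Qiagen AllPrep columns and made into libraries with a NEBNext Ultra II kit, per the labels' protocols. Trim Galore, Bismark, methylKit and mm10 are named in the submitters' processing notes, without versions. The handling of duplicates and overlapping mates is not stated there. The table deposited by the authors gives, per the file headers, the coverage and the counts of methylated and unmethylated reads at each CpG cytosine, by strand, in 10 numbered libraries. No cytosine of the table has fewer than 10 reads in a library. All 30 columns of counts could be matched to no sample, so the planned exact permutation test between groups was not run.

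Levels, 1 kb tiles (at least 3 cytosines) and windows of 1000 bp were computed in Python 3.11.15 with numpy 2.4.6, pandas 2.3.3 and scipy 1.17.1. Gene records, strands and promoters came from RefSeq's GRCm38.p6, with mm10 coordinates. The homogeneity test had 9 degrees of freedom and was tried on simulated counts at intermediate levels of 20% or more, each count a separate molecule. The simulation does not cover the 324 HoxB cytosines tested at 5% to 10%, the 404 at 10% to 20%, or fragments counted in 2 mates. Over the whole cluster, 107643 of 712297 reads were methylated (15.1%, Wilson 95% interval 15.03% to 15.20%). The interval covers counting error only and is too narrow where a molecule was counted more than once. The text names all 10 members, every other annotated gene of the span with at least 3 cytosines in its window, the ends of each list, and the extreme tiles with at least 10 cytosines; the single CpGs with unlike strands and the tiles beside named genes were chosen after their values were seen. The members, lists and tests were chosen with earlier results of these data known. Alternatives were other window and tile sizes, coverage of at least 20, weighting by reads, merged strands, a halved statistic, the Hoxb1 promoter without its CCGG and leaving out each library.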

Additional observations from a re-analysis of the deposited data

How the results depend on the processing

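The level of the cluster moved by less than the standard deviation over the libraries in every setting tried. It was 15.5% with a coverage of at least 20, 15.1% weighted by reads, 15.8% with strands merged, and 15.4% to 15.6% leaving out each library. The share of tiles under 10% was 22.2% by pooled level. Over single libraries it ran from 22.2% to 31.9%, so the pooled share was at the lower end. The pooled share became 28.6% with at least 10 cytosines per tile, since sparse tiles are higher here. Tiles of 500 bp and 2000 bp and a coverage of at least 20 moved it by less than the standard deviation over the libraries. The 318 cytosines that differed between libraries became 0 with the statistic halved and 265 to 291 leaving out each library. Testing only the 393 with a pooled level of 20% to 80% left 96, and a coverage of at least 20 left 226 of 666. The shares stayed near those of all autosomal cytosines tested in the same setting. They were 24.4% beside 25.04% at 20% to 80%, and 33.9% beside 34.7% with a coverage of at least 20. Leaving out each library, the cluster had 23.7% to 25.8%, beside 22.5% to 22.9%. For single genes, 24 of 43 values under other windows, coverage or weighting moved by more than the standard deviation over the libraries. Among them were all 9 over the whole record and 7 of 9 within 2000 bp. Leaving out a library, 0 of 90 values did so. Members under 10% numbered 3 of 7 within 500 bp, 5 of 10 within 2000 bp and 5 of 10 over the record, beside 4 of 9 within 1000 bp. Hoxb4 was the lowest in each start window and Hoxb9 the lowest over the record. Hoxb4 had 3.57% within 500 bp and 5.93% within 2000 bp. Hoxb5 has no level at its start, and Hoxb3 and Hoxb7 had fewer than 3 cytosines within 500 bp. No paired analysis was possible because the columns carry none of the embryo numbers of the labels, and the block at the group difference was not run. The depth limits single cytosines, where a library has as few as 10 reads.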
